A study of Mus musculus with 4 samples.

Results

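Interferon-inducible genes are genes whose RNA rises when a cell receives an interferon. The 38 described here are the mouse genes of that kind listed for the study's cells: 14 interferon-inducible GTPases (Gbp2 to Gbp7, Gbp9, Iigp1, Igtp, Irgm1, Irgm2, Tgtp1, Tgtp2 and Ifi47), 16 antiviral or otherwise interferon-stimulated genes of the Ifit, Isg and Oas kind, and 8 regulators of the response. They are 38 of the 55488 genes in the count tables, and all 38 are accounted for in each of the main glomerular cell classes. They were chosen by name with earlier results of these data known. Their counts beside the share over all genes are therefore a description and not an independent check. Ifi47 is placed with the GTPases because it encodes a member of the same immunity-related family as Irgm1 and Igtp.

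Interferons act through linked routes. Type I interferons bind the receptor made of Ifnar1 and Ifnar2, which leads to a complex with Stat2 and Irf9 that binds the interferon-stimulated response element (ISRE), while interferon-gamma, a product of T and NK cells, binds Ifngr1 and Ifngr2, acts through the gamma-activated site (GAS) and induces the transcription factor Irf1. Guanylate-binding proteins (Gbp) and immunity-related GTPases (Irgm1, Igtp, Iigp1, Tgtp2) are known as strongly interferon-gamma-inducible proteins that attack the vacuoles of intracellular pathogens, whereas the Ifit, Isg15, Rsad2 and Oas-like genes are classical type I targets that act on viral RNA and proteins. Many genes answer to both.

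The libraries are single-cell RNA profiles of kidney glomeruli, the filtering tufts built of podocytes, endothelial cells and mesangial cells, made with droplet 3′ chemistry. The WT groups are wild type, and the AS groups are a mouse model of Alport syndrome with the G5X mutation of Col4a5, an X-linked chain of the type IV collagen of the basement membrane between podocytes and endothelium. Ages are 5 weeks, described as before the onset of proteinuria, and 8 weeks, described as having mild proteinuria and an altered basement membrane. There is 1 library for each of the 4 groups, named here WT 5 weeks, AS 5 weeks, WT 8 weeks and AS 8 weeks. The labels name no strain, sex or number of animals per library, no dissociation protocol and no treatment shared by the groups, and their tissue field calls the glomeruli embryonic although the titles give ages in weeks. With 1 library a group there is no replicate check and no test, and genotype, animal and preparation cannot be told apart. Intervals are at the 95% level and describe counting error alone.

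The libraries held between 6604 and 7963 barcodes and between 74356581 and 126118422 unique molecular identifiers (UMIs, each marking 1 captured RNA molecule), and between 5556 and 6832 cells were kept. Pairs of libraries shared between 13 and 18 barcodes. Col4a5 was at 547 CPM in WT 5 weeks (UMIs of a gene scaled to the same total in every class and library), 192 in AS 5 weeks, 387 in WT 8 weeks and 198 in AS 8 weeks among podocyte-like cells, so both AS libraries were below both WT libraries. Cells were clustered without the interferon, chemokine and antigen presentation genes, and clusters were named from markers. The podocyte-like class held 1589, 1532, 2649 and 2271 cells in the order WT 5 weeks, AS 5 weeks, WT 8 weeks and AS 8 weeks, the glomerular endothelial-like class 2479, 3217, 970 and 2423, and the mesangial-like class 727, 937, 279 and 1294. Different clusters carried a class in different libraries. Cluster 0 held 1377 of the WT 5-week podocyte-like cells, cluster 1 held 1030 of AS 5 weeks, cluster 2 held 1996 of WT 8 weeks and cluster 19 held 2044 of AS 8 weeks. Cluster 12 held 701 and 883 of the mesangial-like cells at 5 weeks, and cluster 16 held 248 and 1200 at 8 weeks. Endothelial-like cells lay mainly in clusters 4, 6 and 9 at 5 weeks and in cluster 7 at 8 weeks. Podocyte markers summed to between 15982 and 20922 CPM in the podocyte-like class, and endothelial markers to between 20119 and 24995 CPM in the endothelial-like class. In the mesangial-like class endothelial markers were at 7757 CPM in WT 8 weeks against between 1092 and 1472 CPM elsewhere, so that this class of 279 cells is mixed in WT 8 weeks.

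The promoters were searched for the letters of both routes, and differences in share between the groups of genes were not tested. Promoter sequence, taken from RefSeq on build GRCm38.p6, was found for 29 of the 38 genes, and the 250 bases before the start were searched on both strands for the ISRE core GAAANNGAAA and for the GAS letters TTCNNNGAA. The ISRE core was present for 9 of 10 GTPase genes, 6 of 12 antiviral genes and 2 of 7 regulators, against 2.98% of all 32851 promoters in the table. The GAS letters were present for 6 of 10, 2 of 12 and 2 of 7, against 7.02% of all promoters. A gene was counted if any of its promoters matched, whereas the share over all promoters counts each promoter alone. Irf1, Irf8 and Ifit2 held the GAS letters in 1 promoter and not in another, and Gbp3 likewise for the ISRE core. In Igtp, Irgm2, Tgtp1 and Tgtp2 the GAS letters stand before the ISRE core with a gap of 2 bases. The stretches below end at the annotated start and show this arrangement (Igtp, Tgtp2), the same letters overlapping (Bst2), the ISRE core alone (Isg15, Ifit3) and the GAS letters alone (Irf1), with capitals marking the matches. They run 5′ to 3′ on the gene's strand, at chr11:58199416-58199555 (plus) for Igtp, chr11:49064213-49064352 (minus) for Tgtp2, chr8:71537473-71537612 (minus) for Bst2, chr4:156200819-156200958 (minus) for Isg15, chr19:34583389-34583528 (plus) for Ifit3 and chr11:53769874-53770013 (plus) for Irf1.
Igtp: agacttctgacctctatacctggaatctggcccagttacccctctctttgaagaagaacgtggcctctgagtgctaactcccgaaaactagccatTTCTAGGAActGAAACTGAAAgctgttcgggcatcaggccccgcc
Tgtp2: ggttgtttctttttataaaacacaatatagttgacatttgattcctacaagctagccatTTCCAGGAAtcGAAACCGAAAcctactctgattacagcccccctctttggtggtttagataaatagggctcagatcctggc
Bst2: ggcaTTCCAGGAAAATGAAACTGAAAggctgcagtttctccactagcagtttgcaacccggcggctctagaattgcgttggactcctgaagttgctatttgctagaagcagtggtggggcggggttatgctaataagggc
Isg15: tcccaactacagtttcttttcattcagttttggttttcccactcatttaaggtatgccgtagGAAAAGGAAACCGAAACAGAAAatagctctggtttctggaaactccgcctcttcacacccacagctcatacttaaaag
Ifit3: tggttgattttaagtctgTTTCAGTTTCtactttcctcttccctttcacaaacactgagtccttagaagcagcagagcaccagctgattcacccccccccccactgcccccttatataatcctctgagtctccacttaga
Irf1: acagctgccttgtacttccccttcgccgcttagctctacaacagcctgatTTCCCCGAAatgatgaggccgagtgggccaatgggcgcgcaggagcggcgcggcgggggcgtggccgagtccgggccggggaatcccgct
Isg15 holds 3 overlapping cores. A match is a description of these letters, not a site, and a missing match says only that these letters are not in it. In Ifit3 the core lies on the opposite strand.

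In podocyte-like cells the GTPase genes were high in WT 5 weeks and low in the other libraries. Their summed level was 781 CPM in WT 5 weeks, 90.6 CPM in AS 5 weeks, 76.6 CPM in WT 8 weeks and 123 CPM in AS 8 weeks. WT 5 weeks was 8.62-fold above AS 5 weeks and 10.2-fold above the WT library of the other age, and AS 8 weeks was 1.60-fold above WT 8 weeks. On the scale log2((CPM + 5)/(CPM + 5)), used for every log2 ratio below, AS over WT was -3.04 (-3.09 to -2.99) at 5 weeks and 0.64 (0.59 to 0.70) at 8 weeks. The added 5 CPM shrinks the ratio of low genes. The antiviral genes showed a smaller spread, with a summed level of 305 CPM in WT 5 weeks, 202 in AS 5 weeks, 174 in WT 8 weeks and 258 in AS 8 weeks, and log2 ratios of -0.58 (-0.63 to -0.54) and 0.56 (0.52 to 0.60). The regulators summed to 159, 57.2, 53.0 and 63.0 CPM in the same order, with log2 ratios of -1.40 and 0.23. The plot of summed levels by class and library shows that WT 5 weeks is the highest library for all 3 groups of genes in all 3 glomerular classes.

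**Figure D1:**
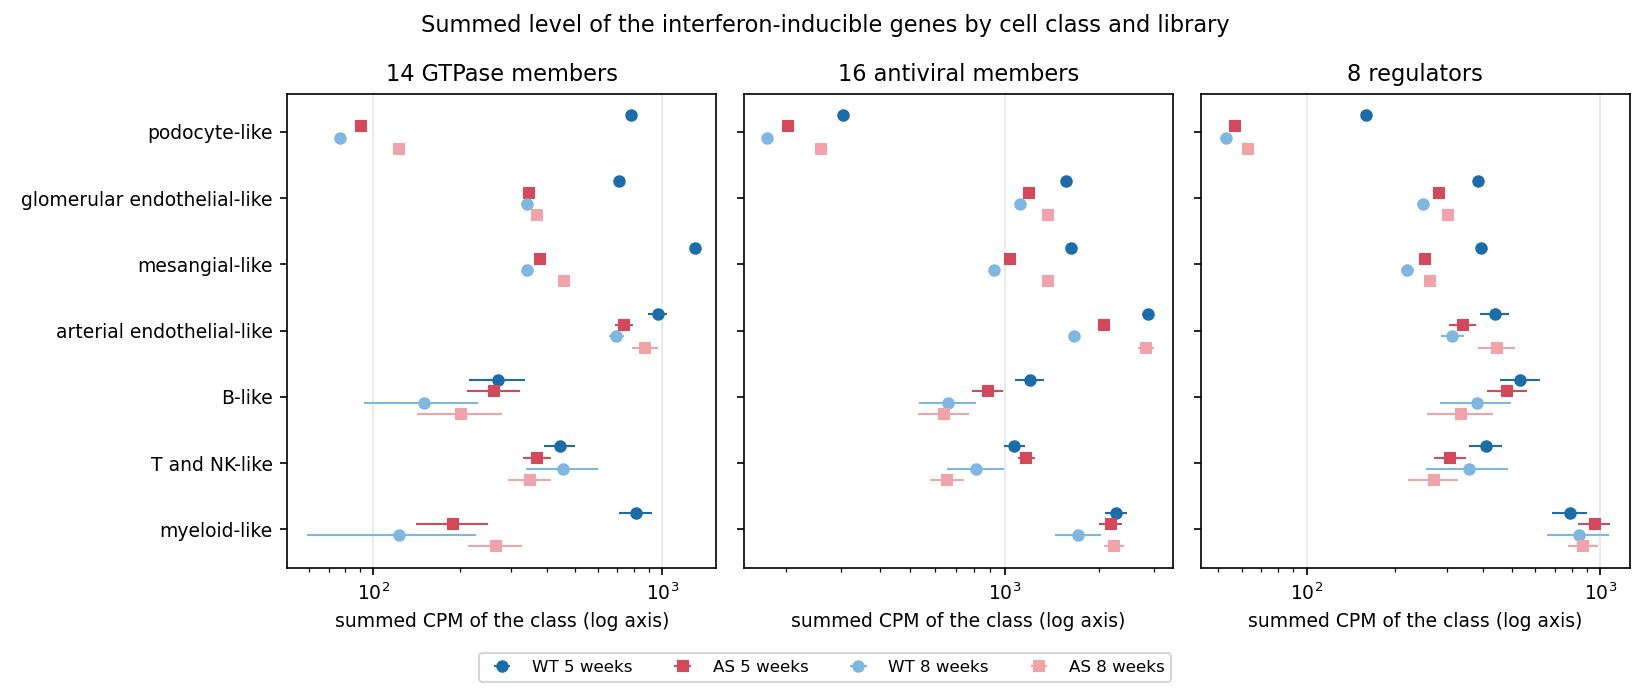
Summed level of the 14 GTPase genes (left), the 16 antiviral genes (middle) and the 8 regulators (right) in 7 cell classes, in CPM of the class on a log axis. Each point is 1 library and bars are 95% Poisson intervals of counting error. In podocyte-like cells the GTPase sum is 781 CPM in WT 5 weeks and at most 123 CPM in the other 3 libraries.

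A gene was counted as higher or lower at a 1.5-fold ratio, and only where its mean over the 4 libraries was at least 10 CPM, the floor. In podocyte-like cells 17 of the 38 genes were past the floor, and at 5 weeks 14 of these were lower in AS and 0 higher, where 1.13% of all 8503 genes past the floor were lower and 2.07% higher. They were 7 of 7 GTPases with a median log2 ratio of -2.39, 3 of 6 antiviral genes (Ifit3, Bst2 and Xaf1) with a median of -0.49, and 4 of 4 regulators (Irf1, Irf9, Stat2 and Cd274) with a median of -1.02. The median over all genes past the floor was -0.003. Of the 17, Gbp3, Iigp1 and Cd274 pass the floor only through WT 5 weeks, and 11 of the remaining 14 were lower in AS at 5 weeks. Set against WT 8 weeks instead, 0 were lower in AS 5 weeks and 1 was higher, where 1.42% of all genes were lower and 1.82% higher, so that the 5-week count rests on the WT 5-week library.

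Among the guanylate-binding proteins, Gbp2 (chr3:142620602-142638008, GRCm38) was at 204 CPM in WT 5 weeks, 16.5 in AS 5 weeks, 8.50 in WT 8 weeks and 29.4 in AS 8 weeks, with log2 ratios of AS over WT of -3.28 (-3.38 to -3.18) at 5 weeks and 1.35 (1.24 to 1.46) at 8 weeks. It was highest in WT 5 weeks and lowest in WT 8 weeks, so the AS libraries lie between the WT libraries. Gbp2 made up 26.1% of podocyte GTPase UMIs in WT 5 weeks and 11.1% in WT 8 weeks. Gbp7 was at 120.1 CPM in WT 5 weeks, 29.8 in AS 5 weeks, 23.6 in WT 8 weeks and 32.3 in AS 8 weeks, with log2 ratios of -1.84 and 0.38. Gbp3 was at 46.1, 1.82, 0.775 and 3.75 CPM in the order WT 5 weeks, AS 5 weeks, WT 8 weeks and AS 8 weeks, with log2 ratios of -2.91 and 0.60. Both therefore shared the order of Gbp2, WT 5 weeks far above the rest and WT 8 weeks lowest.

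The immunity-related GTPases were also highest in WT 5 weeks. Iigp1, which coats pathogen vacuoles, was at 90.3 CPM in WT 5 weeks (2503 UMIs), 0.491 in AS 5 weeks (17 UMIs), 0.625 in WT 8 weeks and 1.78 in AS 8 weeks, with a log2 ratio of -4.12 (-4.18 to -4.04) at 5 weeks and 0.27 at 8 weeks. It went from 11.6% of the podocyte GTPase UMIs in WT 5 weeks to 0.543% in AS 5 weeks. Irgm1, a regulator of the other immunity-related GTPases, was at 76.4 CPM in WT 5 weeks, 10.6 in AS 5 weeks, 11.3 in WT 8 weeks and 18.3 in AS 8 weeks, with log2 ratios of -2.39 and 0.51. Irgm2 was at 81.5 CPM in WT 5 weeks and between 17.2 and 17.9 CPM in the other 3 libraries, with log2 ratios of -1.93 and -0.04. Its 3 low libraries could not be separated, as the 8-week interval runs from -0.15 to 0.07. Igtp (chr11:58199556-58207591), whose promoter stretch is shown above, was at 78.2 CPM in WT 5 weeks, 12.4 in AS 5 weeks, 12.2 in WT 8 weeks and 16.4 in AS 8 weeks, with log2 ratios of -2.26 and 0.32. The annotation of Irgm2 (chr11:58199618-58222782) overlaps that of Igtp, so their counts may not be fully separable.

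The other 7 GTPases (Gbp4, Gbp5, Gbp6, Gbp9, Tgtp1, Tgtp2 and Ifi47) were under the floor in podocyte-like cells, at between 0.0250 and 29.2 CPM, and WT 5 weeks was the highest library for each of the 7. Tgtp2 (chr11:49057194-49064206) had 811 UMIs in WT 5 weeks, 2 in AS 5 weeks, 23 in WT 8 weeks and 55 in AS 8 weeks, and Ifi47 had 696, 15, 19 and 74 in the same order. Tgtp1 and Tgtp2 are near-identical copies that share 89.4% of the 50-base words of the Tgtp1 transcript, and 59.7% of the words of Gbp6 occur in other genes, so the split of reads between them is uncertain.

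The antiviral genes did not share 1 order of libraries in podocyte-like cells. Bst2, tetherin, which holds budding virions at the cell surface, was at 49.2 CPM in WT 5 weeks, 16.8 in AS 5 weeks, 13.6 in WT 8 weeks and 22.9 in AS 8 weeks, with log2 ratios of -1.32 (-1.43 to -1.20) and 0.59 (0.48 to 0.70). That is the order seen for the GTPases. Ifit3, which binds other Ifit proteins on viral RNA, was at 28.5 CPM in WT 5 weeks, 13.2 in AS 5 weeks, 17.4 in WT 8 weeks and 39.5 in AS 8 weeks, with log2 ratios of -0.88 (-1.01 to -0.75) and 0.99 (0.89 to 1.09). Here AS 8 weeks and not WT 5 weeks was highest. Ifit3 shares 51.2% of its 50-base words with Ifit3b, and the split of their reads is uncertain. Xaf1, a proapoptotic interferon target, was at 29.5 CPM in WT 5 weeks and between 13.8 and 18.3 CPM elsewhere, with log2 ratios of -0.86 and 0.31.

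Ifit2, Ifi35 and Rnf213 stayed within 1.5-fold between genotypes at both ages in podocyte-like cells. Ifit2 was at 33.8 CPM in WT 5 weeks, 35.0 in AS 5 weeks, 38.1 in WT 8 weeks and 48.3 in AS 8 weeks, with a 5-week log2 ratio of 0.04 (-0.07 to 0.15). Ifi35 was at 28.8, 34.6, 34.1 and 39.7 CPM in the same order, and WT 5 weeks was thus the lowest library for both. Rnf213, a large ubiquitin ligase, was at 67.5, 61.4, 41.8 and 56.5 CPM. The 10 antiviral genes under the floor were at between 0.0250 and 22.2 CPM, and WT 5 weeks was highest for 7 of them. Isg15, a ubiquitin-like modifier, was at 12.7 CPM in WT 5 weeks, 10.9 in AS 5 weeks, 2.55 in WT 8 weeks and 10.9 in AS 8 weeks, so that it separates WT 8 weeks from the rest and not WT 5 weeks.

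Among the regulators, Cd274 (PD-L1, the checkpoint ligand that restrains T cells) was at 33.3 CPM in WT 5 weeks, 2.69 in AS 5 weeks, 2.201 in WT 8 weeks and 3.86 in AS 8 weeks, a log2 ratio of -2.31 (-2.44 to -2.18) at 5 weeks and 0.30 at 8 weeks. Irf1, the transcription factor whose promoter stretch above holds the GAS letters, was at 44.5 CPM in WT 5 weeks, 18.5 in AS 5 weeks, 12.7 in WT 8 weeks and 24.6 in AS 8 weeks, with log2 ratios of -1.07 (-1.19 to -0.96) and 0.74 (0.63 to 0.85). Both were highest in WT 5 weeks and lowest in WT 8 weeks. Irf9, the DNA-binding partner of Stat2, was at 32.3 CPM in WT 5 weeks and between 13.0 and 14.4 CPM elsewhere, with log2 ratios of -0.98 and 0.11. Stat2 was at 39.8 CPM in WT 5 weeks, 18.9 in AS 5 weeks, 21.8 in WT 8 weeks and 15.97 in AS 8 weeks, with log2 ratios of -0.91 and -0.36. The other 4 regulators, Irf7, Irf8, Socs1 and Usp18, were at most at 4.003 CPM, and each was highest in WT 5 weeks.

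**Figure D2:**
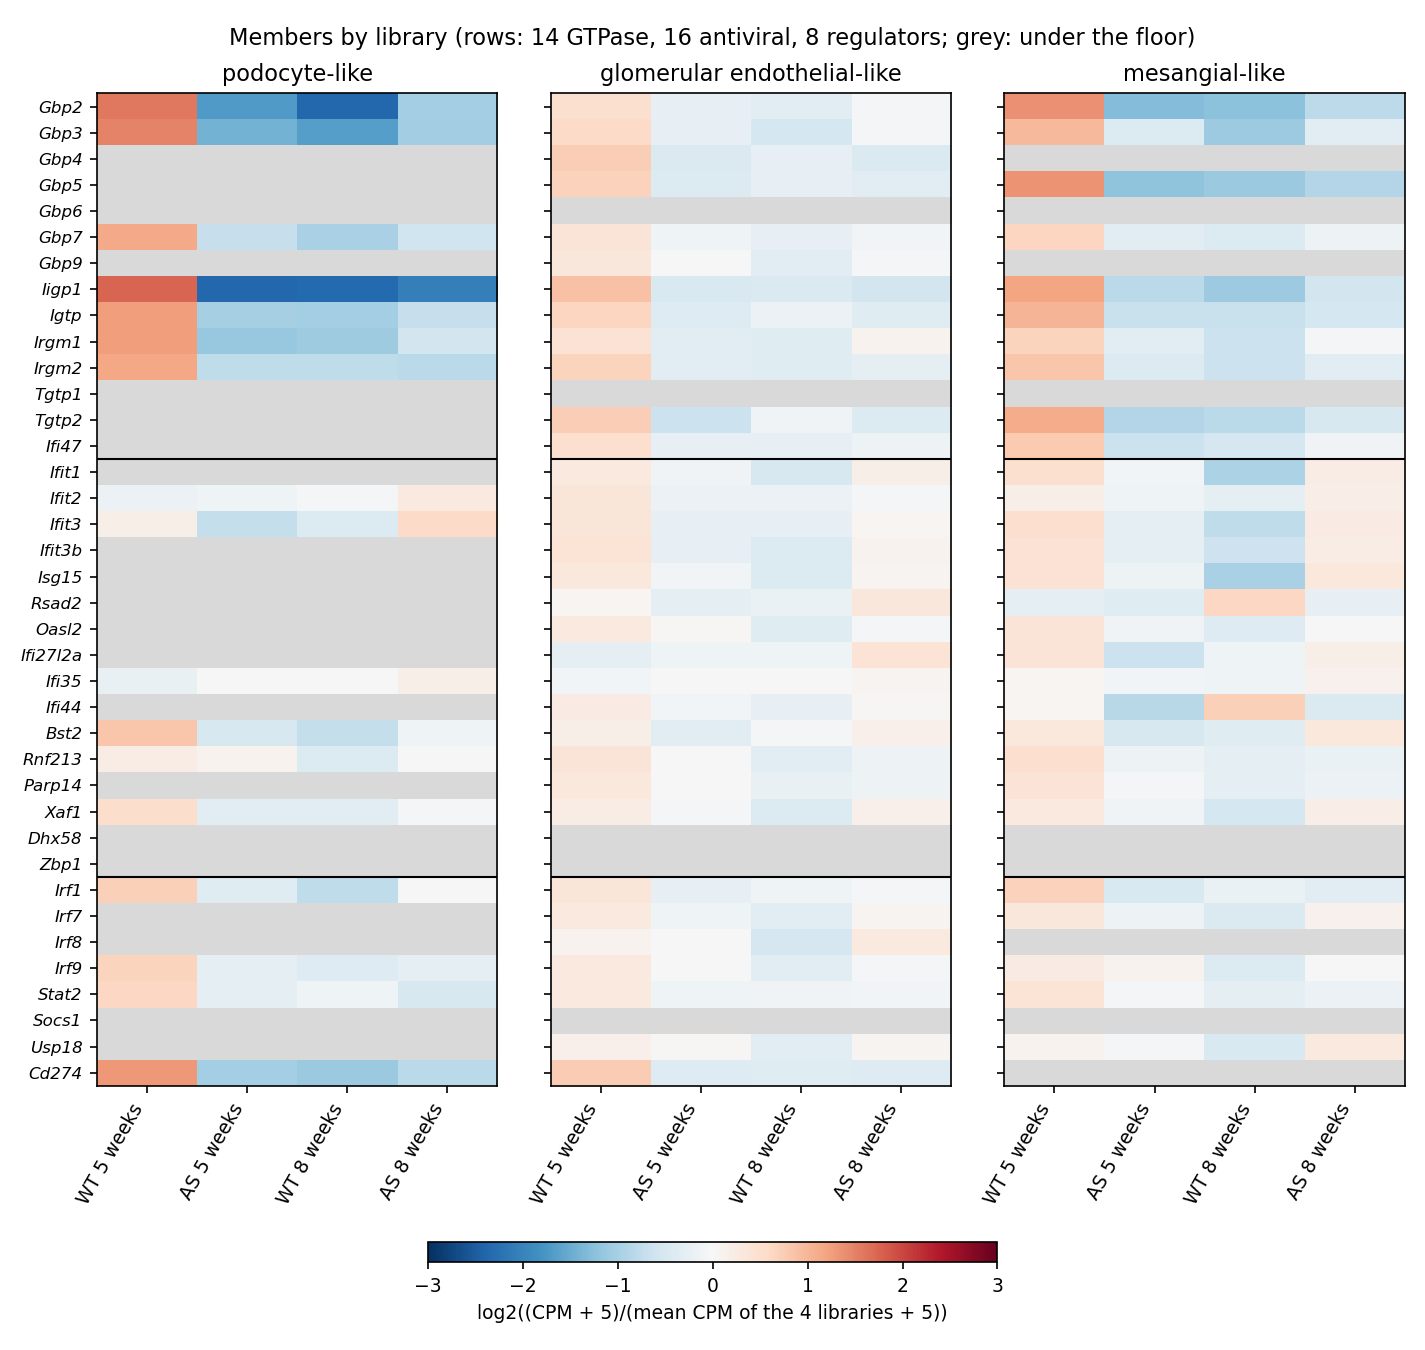
Each of the 38 genes (rows) in each library (columns) for the 3 glomerular classes, as log2 of CPM + 5 over the mean CPM of the 4 libraries + 5. Grey marks genes under the floor of 10 CPM. The WT 5-week column is the highest for 14 of 17 genes in podocyte-like, 29 of 33 in endothelial-like and 23 of 29 in mesangial-like cells. These counts include 3, 3 and 1 genes that pass the floor only through WT 5 weeks. The same share over all genes was not counted.

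Glomerular endothelial-like cells carried the same order with a smaller span. The GTPase sum was 706 CPM in WT 5 weeks, 347 in AS 5 weeks, 339 in WT 8 weeks and 367 in AS 8 weeks, a log2 ratio of AS over WT of -1.02 (-1.05 to -0.98) at 5 weeks and 0.11 (0.04 to 0.18) at 8 weeks. The antiviral sum was 1566, 1199, 1118 and 1371 CPM in the same order, with ratios of -0.38 (-0.41 to -0.36) and 0.29 (0.26 to 0.33). Regulators summed to 384, 282, 249 and 304 CPM, with ratios of -0.44 and 0.28. Of 33 genes past the floor 14 were lower in AS at 5 weeks and 0 higher, where 0.713% of all 9252 genes were lower and 0.627% higher. These were 10 of 12 GTPases (median -0.91), 2 of 14 antiviral genes, Ifit3 and Ifit3b (median -0.37), and 2 of 7 regulators, Irf1 and Cd274 (median -0.42), beside a median of 0.02 over all genes. Gbp5, Tgtp2 and Cd274 pass the floor only through WT 5 weeks, and 11 of the other 30 were lower. Set against WT 8 weeks 0 were lower, where 2.84% of all genes were.

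Iigp1 was at 204 CPM in WT 5 weeks, 77.9 in AS 5 weeks, 79.4 in WT 8 weeks and 72.5 in AS 8 weeks in endothelial-like cells, with log2 ratios of -1.33 (-1.41 to -1.26) and -0.12 (-0.26 to 0.02). Gbp4 was at 63.9, 25.5, 29.7 and 25.5 CPM in the same order, with a ratio of -1.17 at 5 weeks. For both, the 3 libraries other than WT 5 weeks lay close together. Gbp4 and Gbp9 overlap in the annotation on chromosome 5, so their counts may not be fully separable, and Gbp9, at 52.8, 40.2, 31.5 and 39.0 CPM, and Gbp7, at 116, 80.3, 73.4 and 83.8 CPM, were the 2 GTPases past the floor that stayed within 1.5-fold at 5 weeks. Tgtp2 was at 26.4 CPM in WT 5 weeks and between 6.88 and 12.3 CPM elsewhere, with a ratio of -1.40. Gbp6, Tgtp1, Dhx58, Zbp1 and Socs1 were under the floor, at between 0.160 and 11.3 CPM, and WT 5 weeks was highest for all 5.

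Of the 16 antiviral genes 14 were past the floor in endothelial-like cells. Bst2 was at 324 CPM in WT 5 weeks, 227 in AS 5 weeks, 276 in WT 8 weeks and 317 in AS 8 weeks, with log2 ratios of -0.51 and 0.19. Rsad2 (viperin, which blocks viral RNA synthesis) was at 126, 99.4, 104 and 154 CPM, with ratios of -0.32 and 0.55. Its highest library was thus AS 8 weeks, as it was for Ifi27l2a, at 10.2, 11.7, 11.7 and 19.2 CPM. Ifi35 spanned 64.2 to 71.9 CPM. Among regulators Irf1 was at 86.6 CPM in WT 5 weeks, 55.5 in AS 5 weeks, 59.9 in WT 8 weeks and 63.7 in AS 8 weeks, and Cd274 at 22.7, 7.54, 7.66 and 7.44 CPM. Irf8, a factor best known from myeloid and B cells, was at 41.0, 37.97, 25.4 and 47.1 CPM and so separated WT 8 weeks from the rest.

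Droplets also capture free RNA from other cells, so endothelial RNA can be counted in podocyte-like cells of the same library. Emcn, an endothelial marker, stood in podocyte-like cells at between 0.284% and 0.432% of its endothelial level, Kdr at between 0.282% and 0.472% and Ehd3 at between 0.723% and 0.772%. These are 3 of the 8 endothelial markers used. All 8 summed to between 1518 and 2086 CPM in podocyte-like cells, against between 20119 and 24995 CPM in endothelial-like cells. Other markers thus stood at higher shares, for reasons not tested. Ifi44 was within the range of Emcn, Kdr and Ehd3, at between 0.411% and 0.678%, and no podocyte level above background is claimed for it. The source of its UMIs was not tested. Iigp1 was at 44.3% of its endothelial level in WT 5 weeks and at 0.631%, 0.788% and 2.45% in AS 5 weeks, WT 8 weeks and AS 8 weeks. Tgtp2 was at 111% in WT 5 weeks and 0.841% in AS 5 weeks, and Gbp9 at 5.32% and 0.288%. For these 3 GTPases the AS 5-week podocyte level is near the shares of Emcn, Kdr and Ehd3, and no level above background is claimed.

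Mesangial-like cells had the highest GTPase sum of the 3 glomerular classes in WT 5 weeks. It was 1302 CPM there, 379 in AS 5 weeks, 342 in WT 8 weeks and 459 in AS 8 weeks, with log2 ratios of AS over WT of -1.77 (-1.81 to -1.73) and 0.42 (0.35 to 0.49). The antiviral sum was 1625, 1042, 925 and 1374 CPM in the same order, with ratios of -0.64 (-0.67 to -0.61) and 0.57 (0.53 to 0.61). Regulators summed to 392, 253, 220.4 and 263 CPM, with ratios of -0.63 and 0.25. Of 29 genes past the floor 17 were lower in AS at 5 weeks and 0 higher, where 1.34% of all 9407 genes were lower and 0.67% higher. They were 10 of 10 GTPases (median -1.56), 6 of 14 antiviral genes (Ifit3, Ifit3b, Ifi27l2a, Ifi44, Bst2 and Rnf213, median -0.57) and 1 of 5 regulators, Irf1 (median -0.46), beside 0.03 over all genes. Gbp5 passes the floor only through WT 5 weeks, and against WT 8 weeks 2 were lower in AS 5 weeks and 3 higher, where 6.97% and 2.23% of all genes were.

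Iigp1 made up 37.6% of the mesangial GTPase UMIs in WT 5 weeks and between 28.6% and 31.8% in the other libraries. Its level was 489 CPM in WT 5 weeks, 120.3 in AS 5 weeks, 97.6 in WT 8 weeks and 144 in AS 8 weeks, with log2 ratios of -1.98 (-2.05 to -1.92) and 0.54 (0.42 to 0.66). Gbp2 was at 96.4, 10.9, 11.7 and 17.5 CPM in the same order, with ratios of -2.67 and 0.43, and Gbp5 at 61.0, 6.09, 6.90 and 9.06 CPM, with ratios of -2.57 and 0.24. All 3 were high in WT 5 weeks and close together elsewhere. Tgtp2 was at 53.4, 9.66, 10.3 and 14.4 CPM, with a 5-week ratio of -2.00, and Irf1 was at 82.6 CPM in WT 5 weeks and between 34.5 and 42.4 CPM elsewhere, with ratios of -1.15 and -0.12. Under the floor were Gbp4, Gbp6, Gbp9, Tgtp1, Dhx58, Zbp1, Irf8, Socs1 and Cd274, at between 0.160 and 20.7 CPM. Of these 9, Gbp9 (10.9 CPM) and Irf8 (9.47 CPM) were highest in WT 8 weeks, where endothelial markers were high in the class, and the others in WT 5 weeks.

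At 8 weeks the summed GTPase, antiviral and regulator levels were each higher in AS than in WT in the 3 glomerular classes. In podocyte-like cells 5 of 17 genes past the floor were higher in AS (Gbp2, Gbp3, Ifit3, Bst2 and Irf1) and 0 lower, where 3.4% of all genes were higher and 3.2% lower, and the median of the 17 was 0.32 against -0.05 for all genes. Gbp3 is among the genes that pass the floor only through WT 5 weeks, and without such genes 4 of 14 were higher. In endothelial-like cells 2 of 33 were higher, Ifit1 and Irf8, and 0 lower, where 1.31% of all genes were higher and 1.93% lower. In mesangial-like cells 9 of 29 were higher (Gbp3, Irgm1, Ifit1, Ifit3, Ifit3b, Isg15, Bst2, Xaf1 and Usp18), where 1.84% of all genes were higher, and 2 were lower, Rsad2 and Ifi44, where 6.76% were lower. A finer clustering gave 7 higher and 0 lower in this class, but the share over all genes was not counted for it. The 8-week counts too rest on the WT library used, since against WT 5 weeks 0 podocyte genes were higher in AS 8 weeks and 12 lower, where 6.46% of all genes were higher and 4.16% lower. The same exchange gave 1 higher and 9 lower in endothelial-like cells, where 3.66% and 1.28% of all genes were, and 0 higher and 14 lower in mesangial-like cells, where 4.44% and 1.9% were.

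In mesangial-like cells Isg15 was at 147 CPM in WT 5 weeks, 96.4 in AS 5 weeks, 52.7 in WT 8 weeks and 136 in AS 8 weeks, with log2 ratios of AS over WT of -0.58 (-0.67 to -0.50) and 1.29 (1.14 to 1.45). Ifit1 was at 128, 85.5, 44.8 and 107 CPM, with ratios of -0.56 and 1.17, and Ifit3 at 191, 108, 76.4 and 159 CPM, with ratios of -0.80 and 1.01. These 3 were lowest in WT 8 weeks, where the class is mixed with endothelial-like cells, and the size of the 8-week ratios depends on the choice of cells. With the finer clustering they were 0.87 for Isg15, 0.79 for Ifit1, 0.55 for Ifit3 and 0.52 for Gbp3. With cells chosen by their marker UMIs they were 0.61, 0.58, 0.42 and 0.34, so that Ifit1, Ifit3 and Gbp3 were within 1.5-fold. Ifit3 was then at 126 CPM in WT 8 weeks and lowest in AS 5 weeks, at 108 CPM. Bst2 was at 334 CPM in WT 5 weeks and 335 in AS 8 weeks, and at 188 and 208 in AS 5 weeks and WT 8 weeks. Usp18, which removes Isg15 from proteins, was at 46.6, 41.0, 29.4 and 53.2 CPM in the order WT 5 weeks, AS 5 weeks, WT 8 weeks and AS 8 weeks.

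The 2 genes lower in AS 8 weeks among mesangial-like cells are ones at high level in endothelial-like cells, whose markers stood at 7757 CPM in this class in WT 8 weeks. Rsad2 was at 36.1 CPM there and at 17.4 CPM in AS 8 weeks (log2 ratio -0.87), and Ifi44 at 49.6 and 19.6 CPM (-1.15). With a finer clustering, in which endothelial markers were at between 1043 and 1312 CPM in the mesangial-like class of every library, the ratios were 0.05 and 0.84. With cells chosen by their marker UMIs they were 0.55 and 0.81. Neither gene was lower in AS under these choices.

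Between the ages, more of these genes differed in WT than in AS libraries. In podocyte-like cells 14 of 17 genes past the floor were lower in WT 8 weeks than in WT 5 weeks and 0 higher, where 0.823% of all genes were lower and 1.15% higher. The same comparison gave 23 of 33 lower and 0 higher in endothelial-like cells, where 1.37% of all genes were lower and 3.11% higher, and 24 of 29 in mesangial-like cells, where 3.39% were lower. In the latter Rsad2 and Ifi44 were higher, where 8.41% of all genes were. Leaving out the genes that pass the floor only through WT 5 weeks, 11 of 14 were lower in podocyte-like, 20 of 30 in endothelial-like and 23 of 28 in mesangial-like cells. Between AS 5 weeks and AS 8 weeks, 2 podocyte genes were higher at 8 weeks, Gbp2 and Ifit3, where 1.8% of all genes were higher. In endothelial-like cells it was 1, Rsad2, where 1.55% were higher, and in mesangial-like cells 2, Ifi27l2a and Bst2, where 1.65% were higher. None was lower in these 3 classes, where 0.811%, 0.67% and 0.978% of all genes were. These comparisons share libraries with the genotype comparisons and are not independent of them.

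The level of a class can be carried by every cell or by a few. To compare cells at equal depth, each was thinned to 3000 UMIs, and shallower cells were left out, 36, 11, 88 and 51 podocyte-like cells in the order WT 5 weeks, AS 5 weeks, WT 8 weeks and AS 8 weeks. At least 1 GTPase UMI was then found in 45.8% (43.3% to 48.3%) of podocyte-like cells in WT 5 weeks, 21.8% (19.8% to 24.0%) in AS 5 weeks, 19.2% (17.7% to 20.8%) in WT 8 weeks and 25.3% (23.5% to 27.1%) in AS 8 weeks, by exact binomial intervals. Without thinning the shares were 85.3%, 70.04%, 56.5% and 78.1%, at median depths of 16415, 17992, 14561 and 21117 UMIs per cell. For the antiviral genes the thinned shares were 47.2% (44.7% to 49.7%), 41.6%, 38.8% and 49.8% (47.7% to 51.9%). AS 8 weeks had the highest share by this measure. Its interval overlapped that of WT 5 weeks at 3000 UMIs but not at 5000 UMIs.

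A small set of cells held most of the podocyte GTPase UMIs in WT 5 weeks. Cells with 10 or more GTPase UMIs among 3000 numbered 74 of 1553 (4.76%, 3.76% to 5.95%) in WT 5 weeks and 4 of 2220 (0.180%) in AS 8 weeks. None was found among 1521 cells in AS 5 weeks, which allows a share of up to 0.197%, or among 2561 cells in WT 8 weeks, which allows up to 0.117%. The 74 cells held 66.3% of the podocyte GTPase UMIs of their library. Without them the GTPase sum was 278 CPM, still above the 90.6, 76.6 and 123 CPM of the other libraries. The cut is a point on a range, and 22 WT 5-week cells had between 8 and 11 UMIs. As an alternative added after the data were seen, the tenth of podocyte-like cells highest in GTPase share was left out of every library. The 5-week log2 ratio was then -1.40 for the GTPase sum and -0.10 for the antiviral sum. Of the 14 genes, 7 were still counted as lower (Gbp2, Gbp7, Igtp, Irgm1, Irgm2, Bst2 and Irf9). The floor was applied again to the cells left, so genes that fell under it were not counted in either direction. The share over all genes was not counted in the cells left. The highest podocyte-like cell held 110 GTPase UMIs among 3000 in WT 5 weeks, 4 in AS 5 weeks, 5 in WT 8 weeks and 48 in AS 8 weeks.

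**Figure D3:**
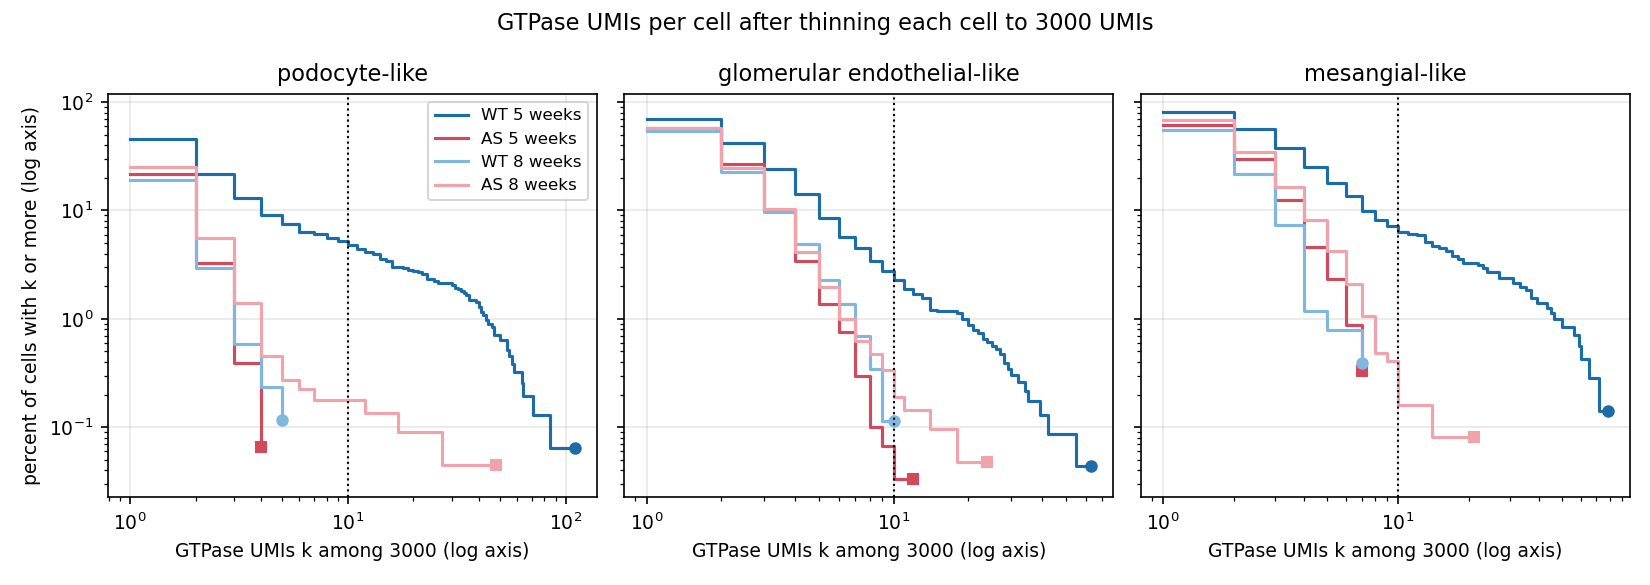
Percent of cells (log axis) holding at least a given number of GTPase UMIs (log axis) after thinning to 3000 UMIs per cell, for 4 libraries in 3 classes. The symbol ends each line at the highest cell, and the dotted line marks 10 UMIs. In podocyte-like cells the WT 5-week line reaches 110 UMIs, and those of AS 5 weeks and WT 8 weeks end at 4 and 5.

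Cells past the cut in WT 5 weeks were also found in the other glomerular classes, where they held a smaller share of the GTPase UMIs. Among endothelial-like cells 52 of 2297 (2.26%) in WT 5 weeks were past the cut, with 22.4% of the GTPase UMIs, against 1 of 3009, 1 of 871 and 4 of 2093 in AS 5 weeks, WT 8 weeks and AS 8 weeks, and without them the WT 5-week sum was 561 CPM. Among mesangial-like cells 45 of 707 (6.36%) were past it in WT 5 weeks, with 45.9% of the GTPase UMIs, against 0 of 905, 0 of 256 and 2 of 1236, and without them the sum was 752 CPM. In both classes the WT 5-week sum without these cells was still above that of the other 3 libraries, which reached at most 367 CPM in endothelial-like and 459 CPM in mesangial-like cells.

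The cut was made on GTPase UMIs, so the GTPase level of the 74 podocyte-like cells is not a result, but the other genes were not used. In these cells the antiviral genes summed to 1797 CPM against 219 CPM in the other 1479 podocyte-like cells of the library, and the regulators to 1150.4 against 102 CPM. Cd274 was at 450.0 CPM against 9.07 CPM, Irf1 at 323 against 28.5, and Oasl2, an Oas-like antiviral protein, at 190.2 against 3.48. Bst2 was at 312 against 34.0 CPM and Ifit3 at 262 against 14.9. Ifit2 (50.4 against 32.9 CPM) and Ifi35 (58.3 against 27.0) were closer, and Ifi44 (1.33 against 0.880) and Dhx58 (0.663 against 0.536) rested on 2 UMIs and 1 UMI in the 74 cells.

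**Figure D4:**
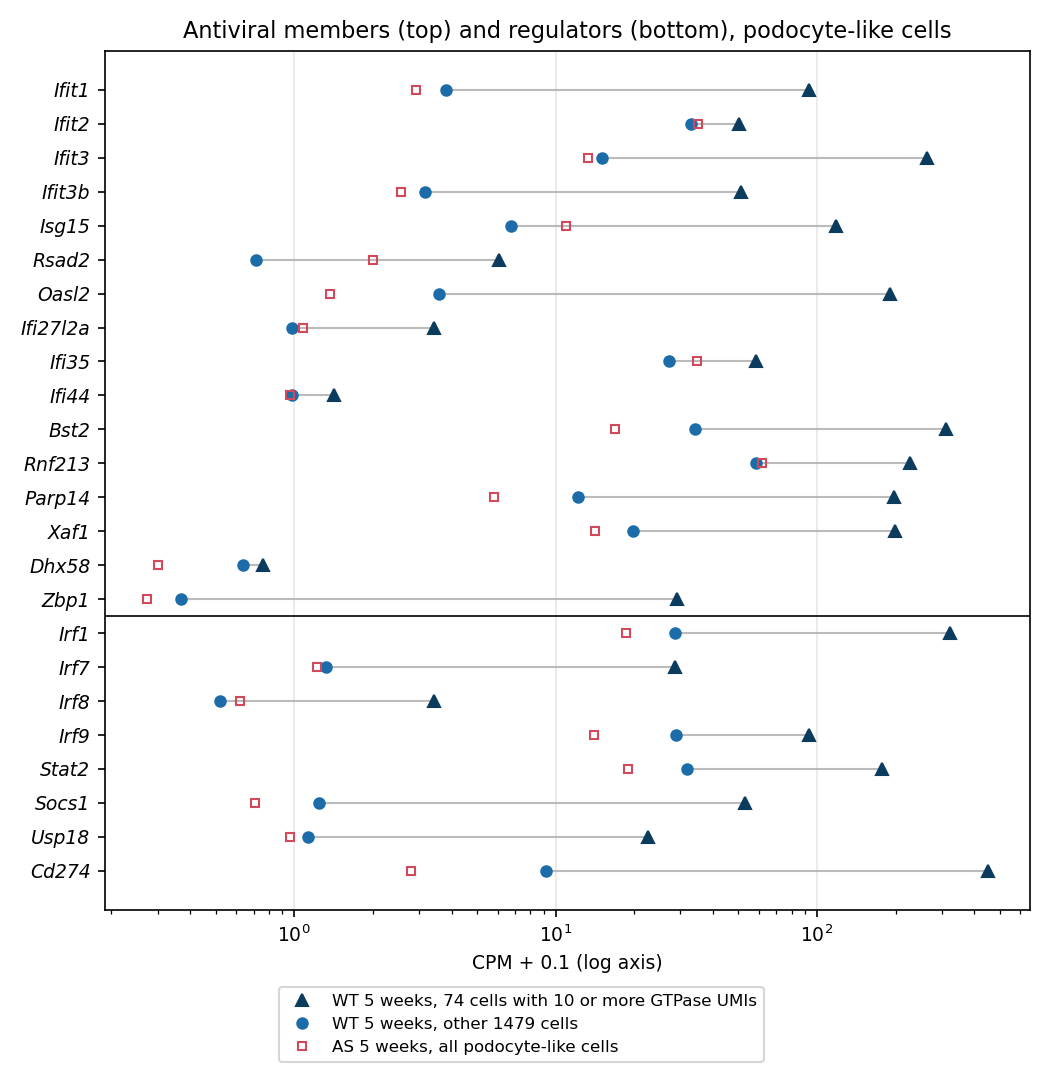
Level of the 16 antiviral genes and 8 regulators in podocyte-like cells, as CPM + 0.1 on a log axis. Triangles are the 74 WT 5-week cells with 10 or more GTPase UMIs, circles the other 1479 cells of that library, and squares all podocyte-like cells of AS 5 weeks. Cd274 is at 450.0 CPM in the 74 cells and 9.07 CPM in the others, while Ifit2 is at 50.4 and 32.9 CPM.

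The 74 cells kept podocyte markers, at a median over cells of 20168 CPM against 20897 CPM in the other cells, and a median depth of 16915 against 16489 UMIs. They lay in clusters 0, 1, 2 and 19 (60, 8, 4 and 2 cells), all podocyte-like. Median levels of the B, T and NK, and myeloid marker lists were 0 CPM in both sets, and 9 of 74 cells (12.2%) had a myeloid marker UMI against 150 of 1479 (10.1%). Myeloid markers summed to 16.6 CPM (10.7 to 24.5, from 25 UMIs) in the 74 cells and 8.15 CPM (7.09 to 9.32) in the others, and their part in the result was not tested. Immediate-early genes, which mark a dissociation response, summed to 288 CPM in the 74 cells and 291 CPM in the others. In the WT 5-week cells past the cut of the other classes they were higher, at 666 CPM (615 to 720) against 277 CPM in mesangial-like and 991 CPM (902 to 1088) against 618 CPM in endothelial-like cells. In AS podocyte-like cells, 4 of 6 immediate-early genes past the floor were higher than in WT at 5 weeks, where 2.07% of all genes were, and 5 of 6 at 8 weeks, where 3.4% were, and their part in the ratios of the interferon genes was not tested.

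Upstream of these genes, most receptors stayed within 1.5-fold between genotypes in podocyte-like cells. Of 6 receptor genes 5 were past the floor. At 5 weeks 1 was higher in AS and 0 lower, where 2.07% of all genes were higher and 1.13% lower. On 5 genes, a count of 0 lower is near the share over all genes. The higher gene, Ifngr2, was at 13.6 CPM in WT 5 weeks, 26.4 in AS 5 weeks, 13.7 in WT 8 weeks and 38.4 in AS 8 weeks, with log2 ratios of AS over WT of 0.75 and 1.21. It was thus higher in both AS libraries than in both WT libraries. Ifngr1 was at 197, 249, 223 and 266 CPM, and Ifnar1 at between 22.2 and 27.2 CPM. Jak1, the kinase shared by both routes, was at between 249 and 262 CPM in podocyte-like cells. Of 8 nucleic acid sensors 4, 4 and 5 were past the floor in podocyte-like, endothelial-like and mesangial-like cells. None of these was past 1.5-fold between genotypes at either age. On so few genes, that is near the shares over all genes given above.

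Antigen presentation genes, which interferon-gamma also induces, were lower in AS at 5 weeks for 7 of 13 past the floor in podocyte-like, 8 of 16 in endothelial-like and 12 of 18 in mesangial-like cells, where 1.13%, 0.713% and 1.34% of all genes were lower. At 8 weeks 6 of the 13 were higher in AS podocyte-like cells, where 3.4% of all genes were, and 1 of the 16 in endothelial-like cells, where 1.31% were. In mesangial-like cells 0 of the 18 were higher and 1 lower, where 1.84% and 6.76% of all genes were. B2m, the invariant subunit of MHC class I molecules, was at 537 CPM in WT 5 weeks, 100.4 in AS 5 weeks, 88.4 in WT 8 weeks and 189 in AS 8 weeks in podocyte-like cells. The chemokines split by class. Cxcl9, which attracts activated T cells, was at 569.8 CPM in WT 5 weeks, 2.12 in AS 5 weeks, 0.642 in WT 8 weeks and 6.33 in AS 8 weeks in mesangial-like cells, and Cxcl10 at 452, 14.97, 14.6 and 40.2 CPM. In podocyte-like cells Cxcl10 was highest in AS 8 weeks, at 59.9 CPM against 10.2, 8.12 and 0.450 CPM in WT 5 weeks, AS 5 weeks and WT 8 weeks. In the 45 mesangial-like cells past the cut in WT 5 weeks, Cxcl9 was at 6698 CPM against 161 CPM in the other 662, and Cxcl10 at 6537 against 45.6 CPM.

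Ifng, the gene of interferon-gamma, was found in the T and NK-like class, which also holds B cell markers and is therefore mixed. It had 196 UMIs (330 CPM) in WT 5 weeks, 4 UMIs (4.81 CPM) in AS 5 weeks, 3 UMIs (26.7 CPM) in WT 8 weeks and 11 UMIs (27.8 CPM) in AS 8 weeks, in 9 of 55, 3 of 75, 1 of 11 and 5 of 43 cells. A single WT 5-week cell held 115 of the 196 UMIs. Without the highest cell of each library, Ifng was at 141 CPM in WT 5 weeks, 2.43 in AS 5 weeks, 0 in WT 8 weeks and 12.1 in AS 8 weeks. No UMI of any of the 8 interferon genes was found in podocyte-like or mesangial-like cells in any library, and 1 Ifng UMI was found in endothelial-like cells of WT 5 weeks.

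Among the smaller classes, the GTPase sum of myeloid-like cells (33, 38, 9 and 42 cells) was 812 CPM in WT 5 weeks, 189 in AS 5 weeks, 123 in WT 8 weeks and 265 in AS 8 weeks, a log2 ratio of -2.07 (-2.53 to -1.63) at 5 weeks. Of 26 such cells deep enough in WT 5 weeks, 2 were past the cut and held 58.2% of the GTPase UMIs, and without them the sum was 348 CPM. The antiviral sum of the class was 2270.1, 2184, 1719.7 and 2239.9 CPM. Arterial endothelial-like cells had GTPase sums of 964, 737, 694 and 873 CPM and antiviral sums of 2863, 2075, 1672 and 2832 CPM, so that AS 8 weeks came close to WT 5 weeks. B-like cells were at 270.2, 263, 150 and 202 CPM for the GTPases, with a 5-week log2 ratio of -0.04 (-0.48 to 0.40). T and NK-like cells were at 443, 369, 454 and 349 CPM, with a 5-week ratio of -0.26 (-0.50 to -0.02). In the T and NK-like class WT 8 weeks was the highest library, on 11 cells. Clusters that were left without a class name held between 7.43% and 33.4% of cells, the highest share in WT 8 weeks. One of them, cluster 10, with endothelial markers but a median depth of between 1163 and 1462 UMIs, had a GTPase sum of 5225 CPM in WT 5 weeks (172 cells), 322 in AS 5 weeks (76 cells), 440.5 in WT 8 weeks (30 cells) and 468 in AS 8 weeks (113 cells), so WT 5 weeks was the highest library there too.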

How the data were processed

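Droplet 3′ single-cell RNA-seq of mouse glomeruli gave 4 libraries, 1 per group, grouped by their titles. The deposited files hold UMI counts per gene and cell barcode, written by Cell Ranger 9.0.0 per the file headers. Per the submitters' processing notes bcl2fastq 2.20.0, Cell Ranger and STAR 2.7.2a were used with GRCm38/mm10. The handling of ambient RNA by the authors is not given in the sources used here. The smallest barcode in the files holds 500 UMIs.

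A barcode was used as a cell if it had 500 genes or more, 1000 UMIs or more and no more than 20% of its UMIs from mitochondrial genes. Doublets called by Scrublet in scanpy 1.11.5 (expected share 6%) were removed in each library, between 2.40% and 6.32%. All libraries were clustered together (2000 variable genes, 30 principal components, 15 neighbours, Leiden resolution 1, 27 clusters, Python 3.11.15) without 95 interferon, chemokine and antigen presentation genes. A cluster was named where its best marker class led by 1 log2 unit, rested on at least 3 detected markers and had at least 1/3 of its library's median depth. These naming thresholds were set after the clusters were seen.

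For each class, UMI counts of its cells were added up within a library and scaled to CPM of the class. Ratios use a pseudocount of 5 CPM, a floor of 10 CPM in the mean of the 4 libraries and a call at 1.5-fold. CPM intervals are exact Poisson, ratio intervals conditional binomial and shares of cells Clopper-Pearson, and an empty share is limited at 3 cells. The ratio code was tested on simulated data. Members past the floor in a main class are named with their values, and the rest are given by range. The genes, lists and class rules were chosen with earlier results of these data known. Alternatives were TMM factors (edgeR 4.0.16, R 4.3.3), no floor, a pseudocount of 1 CPM, a mitochondrial maximum of 10%, doublets kept, Leiden resolution 2, interferon genes kept in the clustering, classes from marker UMIs in each cell, another thinning depth and the WT library of the other age. Promoters are RefSeq on GRCm38.p6, and gene positions GENCODE on GRCm38. Some results are not reported here.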

Additional observations from a re-analysis of the deposited data

Results flagged for a closer look

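The summed GTPase and antiviral levels had opposite signs of the AS over WT log2 ratio at the 2 ages in each of the 3 glomerular classes, with 1 library in each group. The difference between the ages was not tested, and each age uses its own WT library. For the GTPases the ratio was -3.04 at 5 weeks and 0.64 at 8 weeks in podocyte-like cells, -1.02 and 0.11 in the endothelial-like class, and -1.77 and 0.42 in the mesangial-like class. For the antiviral genes it was -0.58 and 0.56 in podocyte-like, -0.38 and 0.29 in endothelial-like, and -0.64 and 0.57 in mesangial-like cells. WT 5 weeks was above WT 8 weeks for all 6 of these sums.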

How the results depend on the processing

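No paired analysis was possible because each group has 1 library. For the same reason no replicate could be left out. Exchanging the WT library for that of the other age reversed the sign of the AS over WT log2 ratio of all 12 sums. GTPase ratios at 5 and 8 weeks became 0.23 and -2.62 in podocyte-like, 0.031 and -0.93 in endothelial-like, and 0.15 and -1.49 in mesangial-like cells, and antiviral ratios 0.22 and -0.24, 0.10 and -0.19, and 0.17 and -0.24. The ratio of 0.031 rests on 347 CPM (339 to 354) in AS 5 weeks. WT 8 weeks was at 339 CPM (325 to 354), so these intervals overlap and no difference is claimed. Under the other 7 settings tried for these sums, all 12 kept their sign.

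TMM factors shifted podocyte CPM ratios at 8 weeks by 0.16 on the log2 scale and gave, at 8 weeks, 0.80 (GTPase) and 0.72 (antiviral) in podocyte-like and 0.51 and 0.66 in mesangial-like cells, and -0.54 for podocyte antiviral genes at 5 weeks. Classes from marker UMIs in each cell gave GTPase ratios of 0.54 (podocyte-like, 8 weeks), -1.10 (endothelial-like, 5 weeks), -1.60 and 0.25 (mesangial-like, 5 and 8 weeks), and antiviral ratios at 8 weeks of 0.37 (endothelial-like) and 0.49 (mesangial-like). Leiden resolution 2 gave GTPase ratios of -1.24 (endothelial-like, 5 weeks) and 0.34 (mesangial-like, 8 weeks), and endothelial antiviral ratios of -0.42 and 0.42. Interferon genes kept in the clustering gave 8-week antiviral ratios of 0.33 (endothelial-like) and 0.68 (mesangial-like). Called doublets kept gave -2.98 for podocyte GTPases at 5 weeks and 0.66 for mesangial antiviral genes at 8 weeks. The mitochondrial maximum of 10% moved none of the 12 beyond its interval. Leaving out the 10% of cells highest in GTPase share, chosen after seeing the data, gave 5-week GTPase ratios of -1.40, -0.68 and -1.10 in podocyte-like, endothelial-like and mesangial-like cells, antiviral ratios of -0.10 (podocyte-like) and -0.61 (mesangial-like), and mesangial 8-week ratios of 0.32 (GTPase) and 0.52 (antiviral). The cause of these shifts was not tested.

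Of the counts of genes past 1.5-fold, those lower in podocyte-like AS cells at 5 weeks went from 14 to 25 with no floor, as more genes are counted, and those lower in mesangial-like cells at 8 weeks from 2 to 5. A pseudocount of 1 CPM gave 8 higher at 8 weeks in podocyte-like and 5 in endothelial-like cells. Some alternatives for the counts were chosen after seeing the data. With the other WT library, 1 was higher and 0 lower at 5 weeks and 0 higher and 12 lower at 8 weeks in podocyte-like cells, 0 lower at 5 weeks and 1 higher and 9 lower at 8 weeks in endothelial-like cells, and 3 higher and 2 lower at 5 weeks and 0 higher and 14 lower at 8 weeks in mesangial-like cells. Without these cells, 7 were lower at 5 weeks and 3 higher at 8 weeks in podocyte-like cells, and 7 lower at 5 weeks in endothelial-like cells. Leiden resolution 2 gave 6 higher in endothelial-like and 0 lower in mesangial-like cells at 8 weeks. Apart from the exchanged WT library, the share over all genes was not counted under these alternatives. Changes in these counts are therefore not read as results about the members.

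Shares of podocyte-like cells with a GTPase UMI, in the order WT 5 weeks, AS 5 weeks, WT 8 weeks and AS 8 weeks, were 57.9%, 32.5%, 28.7% and 36.8% at 5000 UMIs and 85.3%, 70.04%, 56.5% and 78.1% without thinning. For an antiviral UMI they were 61.7%, 59.4%, 55.6% and 68.8%, and 89.5%, 93.6%, 85.3% and 94.9%. WT 5 weeks was the highest library for the GTPases at each depth, and AS 8 weeks for the antiviral genes. At 5000 UMIs the antiviral intervals were 66.8% to 70.7% in AS 8 weeks and 59.2% to 64.1% in WT 5 weeks. Depth limits genes of under about 10 CPM and the smaller classes, where WT 8 weeks has between 9 and 19 immune cells per class.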
